A study of Mus musculus with 4 samples.

Results

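The BCL2 family genes described here are 10 genes that decide at the mitochondrion whether a cell enters apoptosis and that do not belong to the p53 targets of the family. They were chosen by gene symbol from the table of 22138 genes: the anti-apoptotic genes Bcl2, Bcl2l1, Bcl2l2 and Mcl1, the BH3-only genes Bcl2l11, Bid, Bad and Bmf, and the effector genes Bak1 and Bok. Every symbol matched 1 row. RNA-seq measured each gene in 4 libraries. The cells were TT2, mouse embryonic stem cells of a C57BL/6xCBA cross, female by the labels. They were kept feeder-free in medium with serum and LIF and received control siRNA (n = 2) or siRNA against Hnrnpk (n = 2), first at 100 nM and 24 hours later at 50 nM, and RNA was taken about 72 hours after the second transfection. The cell line, medium and transfection schedule were the same in both groups, and the series' design text calls the replicates biological. The product of Hnrnpk, hnRNP K, binds RNA and DNA, and the title of the series places it in silencing by the histone methyltransferase SETDB1. The cells are 1 line, so the values hold for that line only.

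Proteins of the BCL2 family share short BCL2 homology (BH) domains. The effectors, once activated, form pores in the outer mitochondrial membrane that release cytochrome c and so start the caspase cascade. Anti-apoptotic members bind and hold the effectors and their activators, while BH3-only proteins sense damage, loss of growth factors or loss of attachment and either occupy the anti-apoptotic proteins or activate the effectors. Pluripotent cells are known to be sensitive to this route, and MCL1 and BCL-XL, the product of Bcl2l1, are among the proteins that keep them alive.

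Hnrnpk itself had 236 and 226 RPKM after control siRNA, against 68.0 and 70.5 RPKM after Hnrnpk siRNA, in the direction of the labels. RPKM divides mapped reads by transcript length and by library size. The relative depth of the libraries was read from the commonest ratio between low values, with control replicate 1 set to 1. It followed the group, at 1 and 0.981 in the controls and 0.891 and 0.882 after Hnrnpk siRNA. The RPKM of all genes summed to 359659 and 362836 in the controls and to 377825 and 390467 after Hnrnpk siRNA. All 8 markers of pluripotent cells were present, with a summed level of 3651 to 3799 RPKM in the control libraries and 4464 to 4772 RPKM after Hnrnpk siRNA. Dppa5a, with means of 1298 and 2308 RPKM, and Nanog were called higher, Sox2 and Utf1 were called lower, and 4 were not called, with a median log2 change of -0.063 over the 8. Markers of other cell types also moved between the groups. All 4 tested of 6 primitive endoderm markers and all 4 tested of 7 trophectoderm markers were called higher, against 32.2% of all genes tested. Their sums went from 4.55 to 4.64 up to 16.9 to 17.2 RPKM and from 29.0 to 34.7 up to 63.5 to 67.9 RPKM. Pdgfra (means of 0.170 and 0.898 RPKM) passed the filter for testing, a mean of 0.5 RPKM over all libraries, only through the Hnrnpk siRNA libraries. Below that filter, Sox17, Foxa2 and Cdx2 lay higher after Hnrnpk siRNA and Elf5 lay lower (means of 0.107 and 0.0656 RPKM). The 2 tested of 5 blood markers, Cd68 and Hba-a1, were called higher (sums of 10.1 to 11.2 and 49.1 RPKM), while Hbb-b1 was listed at 0 in every library. Hba-a1 (means of 0.339 and 1.81 RPKM) also passed the filter only through the Hnrnpk siRNA libraries. Ptprc and Lyz2 were at 0.0383 RPKM or less in every library. The 2 tested of 7 fibroblast markers and the 3 tested of 5 neural markers were called lower. The part of these shifts in the results below was not tested, and in bulk RNA fewer cells with a transcript and less transcript per cell cannot be told apart.

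The 10 genes spanned a wide range of levels, with an anti-apoptotic gene at either end. In the control libraries Mcl1 was highest, with 109 ± 2.91 RPKM (SD, n = 2), above Bak1 with 49.9 ± 0.933, Bid with 32.8 ± 0.130 and Bok with 23.4 ± 0.584 RPKM (SD, n = 2 each). Bcl2l1 followed with 10.2 ± 0.793 RPKM, then Bad with 7.02 ± 0.415, Bcl2l11 with 5.32 ± 0.0947, Bmf with 4.52 ± 1.04 and Bcl2l2 with 3.06 ± 0.236 RPKM (SD, n = 2 each). Bcl2 was last, with 0.151 ± 0.00490 RPKM (SD, n = 2). Neighbours in this order lay apart in both control libraries, except that Bcl2l11 (5.25 and 5.39 RPKM) and Bmf (5.25 and 3.79 RPKM) met at their nearest values and did not differ beyond the spread of Bmf. After Hnrnpk siRNA the order was the same except that Bok and Bcl2l1 changed places. Mcl1 lay at percentile 95 of the levels of all genes tested in the control libraries, Bok at percentile 72.9 and Bcl2l2 at percentile 25.5.

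**Figure D1:**
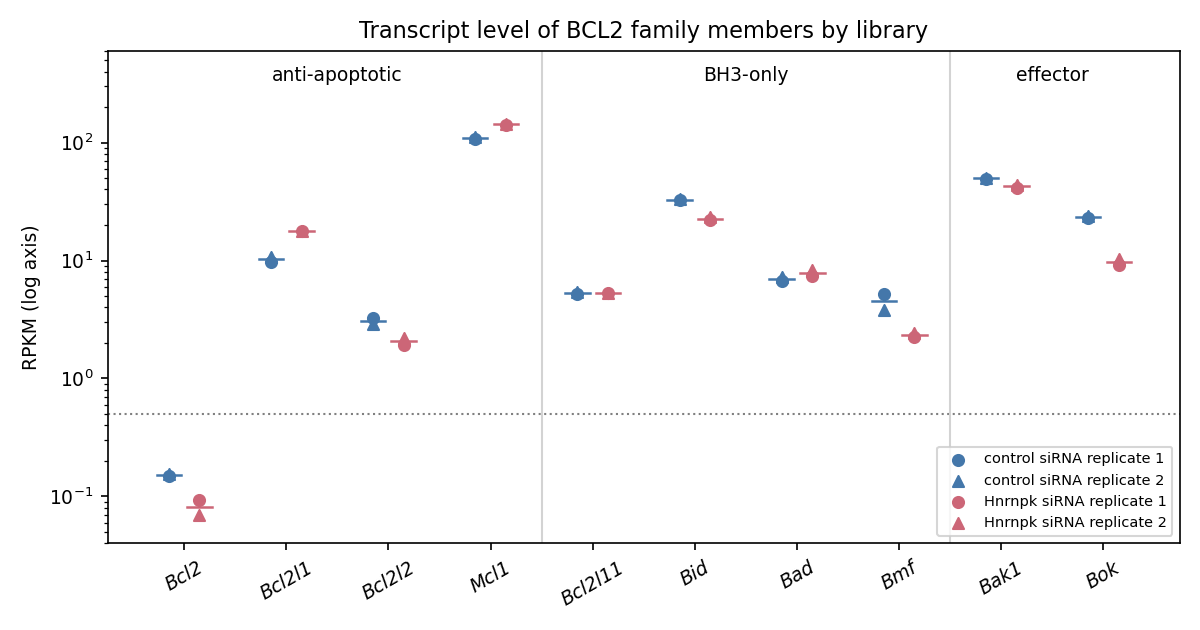
RPKM of each BCL2 family gene (log axis) in each library, with control siRNA in blue and Hnrnpk siRNA in red, circles for replicate 1, triangles for replicate 2 and a bar at the mean of each pair; the dotted line marks 0.5 RPKM. Mcl1 is highest and Bcl2 lowest in both groups, Bcl2l1 and Mcl1 lie higher after Hnrnpk siRNA, and Bok, Bid, Bmf, Bcl2l2 and Bak1 lie lower.

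The start regions of the called genes are shown because hnRNP K binds C-rich single strands of DNA as well as of RNA, the best known being the CT element of the Myc promoter. The 4 members printed are those with the largest called changes among members with 1 start in the RefSeq table of promoters (build GRCm38.p6). Each sequence is the 250 bases before the start, 5′ to 3′ on the strand of the gene: Bok at chr1:93685325-93685574 (plus strand), Bid at chr6:120916825-120917074 (minus strand), Bcl2l2 at chr14:54883175-54883424 (plus strand) and Mcl1 at chr3:95658471-95658720 (plus strand). Capitals mark GGGCGG, the GC box bound by factors of the SP1 family, and CCCTCCC, the core of a CT element, on either strand.
Bok: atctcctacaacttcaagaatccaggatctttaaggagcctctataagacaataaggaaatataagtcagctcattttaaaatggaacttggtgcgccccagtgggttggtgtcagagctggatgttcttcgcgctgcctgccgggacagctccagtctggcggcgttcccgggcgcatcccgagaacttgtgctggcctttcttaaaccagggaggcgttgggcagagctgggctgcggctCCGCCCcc
Bid: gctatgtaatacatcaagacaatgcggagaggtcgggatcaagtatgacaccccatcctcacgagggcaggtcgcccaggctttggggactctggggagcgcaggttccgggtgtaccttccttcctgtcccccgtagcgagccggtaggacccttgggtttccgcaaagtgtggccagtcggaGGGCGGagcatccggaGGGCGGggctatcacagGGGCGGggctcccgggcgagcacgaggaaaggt
Bcl2l2: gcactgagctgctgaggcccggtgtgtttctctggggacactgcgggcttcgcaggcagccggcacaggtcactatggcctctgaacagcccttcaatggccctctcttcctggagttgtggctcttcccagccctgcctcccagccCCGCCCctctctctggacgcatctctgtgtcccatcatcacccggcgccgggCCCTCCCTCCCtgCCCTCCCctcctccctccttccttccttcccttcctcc
Mcl1: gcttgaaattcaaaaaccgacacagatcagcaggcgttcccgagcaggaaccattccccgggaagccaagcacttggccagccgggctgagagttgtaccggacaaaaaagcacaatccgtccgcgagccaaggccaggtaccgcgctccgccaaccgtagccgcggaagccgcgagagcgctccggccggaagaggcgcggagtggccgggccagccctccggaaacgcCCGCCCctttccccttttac

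The windows of Bok and Mcl1 held 1 GC box each, that of Bid held 3, and that of Bcl2l2 held 1 GC box with 3 CT elements, of which 2 overlap by 3 bases. Over all 32851 RefSeq promoter windows of this length, 32.7% held GGGCGG and 19.7% held CCCTCCC. The other called members, Bcl2l1, Bmf and Bak1, held GGGCGG in no window. Of the remaining members, Bcl2 and Bcl2l11 held it in every window, and Bad in 1 of 2. Among the 16 windows of the 10 genes, CCCTCCC was found in Bcl2l2 and in 1 of 2 windows of Bcl2l11. The forkhead motif TGTTTAC, in 3.17% of all windows, was found on the reverse strand in that same window of Bcl2l11, a gene known as a target of FOXO factors, and the E-box CACGTG, in 6.02% of all windows, was in none. These are matches of letters in a window, and no binding was measured.

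Of the 10 genes, 9 had a mean RPKM of 0.5 or more and were tested, and Bcl2 was not. With limma on log2(RPKM + 0.5), 2 members were called higher after Hnrnpk siRNA (Bcl2l1 and Mcl1), 5 were called lower (Bok, Bmf, Bid, Bcl2l2 and Bak1) and 2 were not called (Bad and Bcl2l11), at a Benjamini-Hochberg adjusted p under 0.05 over all 12486 genes tested. Over all genes tested, 67.2% were called, 32.2% higher and 35.0% lower, so 7 of 9 called members is a share close to that of the whole table. The groups did not overlap in 8 of the 9 members, against 84.7% of all genes tested. The median log2 change was -0.23 over the 9 members and -0.015 over all genes tested. A change of at least 1 in size on the log2 scale, which 8.51% of all genes tested reached with a call, was reached by Bok alone among the members. With 2 libraries a group an exact permutation test of 1 gene cannot go below a p of 0.333, so each call rests on the spread that limma pools across genes.

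**Figure D2:**
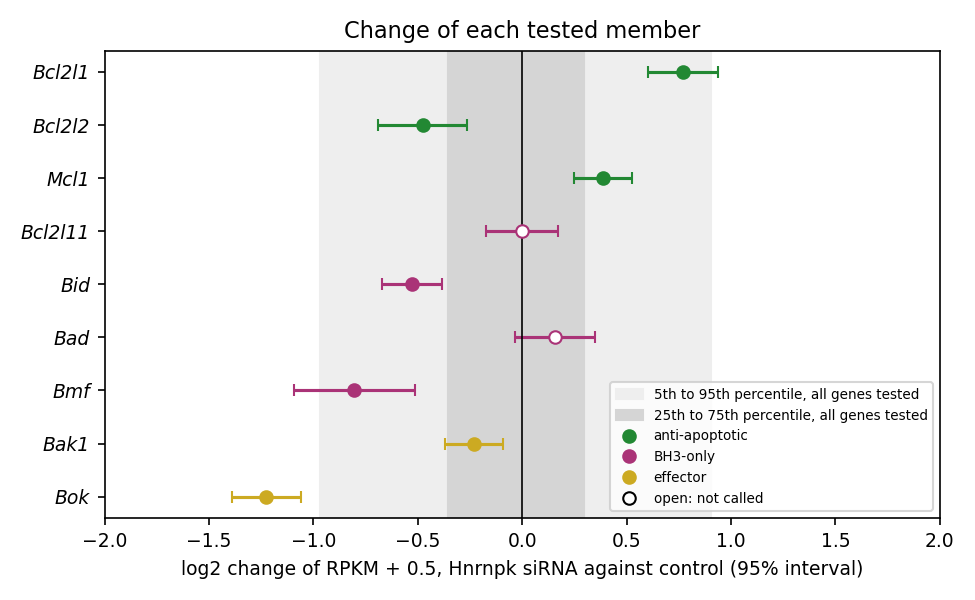
Log2 change of RPKM + 0.5 (Hnrnpk siRNA against control siRNA) with its 95% interval for the 9 members tested, coloured by role, with open points for members not called; the grey bands hold the middle of the changes of all genes tested. Bok, at -1.23, lies outside the band from the 5th to the 95th percentile, which runs from -0.97 to 0.91; the other members lie inside it.

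The anti-apoptotic genes split: Mcl1 and Bcl2l1, the most abundant of them, rose, and Bcl2l2 fell. Mcl1 (ENSMUSG00000038612) encodes a short-lived protein that holds BAK1 and BIM in check. Control siRNA gave 107 and 111 RPKM and Hnrnpk siRNA 140.1 and 145 RPKM, so both of the latter lay above both controls. Its mean went from 109 ± 2.91 to 142 ± 3.12 RPKM (SD, n = 2 each), a ratio of 1.31, and its log2 change was 0.39 (SE 0.0623, limma adjusted p = 0.000402). In absolute terms this was the largest gain among the members, since Mcl1 started at the highest level.

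Bcl2l1 (ENSMUSG00000007659) had the largest relative rise among the members. It stood at 9.68 and 10.8 RPKM after control siRNA and at 17.6 and 17.9 RPKM after Hnrnpk siRNA, with no overlap. The mean went from 10.2 ± 0.793 to 17.8 ± 0.227 RPKM (SD, n = 2 each), or 1.74 times the control mean, and the log2 change was 0.77 (SE 0.0747, 95% interval 0.60 to 0.94, limma adjusted p = 1.67e-05). The transcript of Bcl2l1 is spliced at alternative 5′ splice sites into BCL-XL, which protects cells, and the shorter BCL-XS, which promotes death, and hnRNP K is among the proteins known to act on that choice. GENCODE M21 lists 9 transcripts of the gene, 8 of them protein coding. The table gives 1 value for the gene, so the rise is of all its transcripts together and the share of either form was not measured.

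Bcl2l2 (ENSMUSG00000089682), which encodes BCL-W, a guardian with a known role in the male germ line, went the other way. Its levels were 3.23 and 2.89 RPKM in the control libraries and 1.93 and 2.19 RPKM after Hnrnpk siRNA, both below both controls. The mean fell from 3.06 ± 0.236 to 2.06 ± 0.180 RPKM (SD, n = 2 each), and limma put the log2 change at -0.48 (SE 0.0952, adjusted p = 0.00159). In GENCODE M21 its exons share 594 bases (13.3% of its exonic length) with Gm20521 on the same strand, a gene at 97.5 ± 7.22 and 115 ± 11.5 RPKM (SD, n = 2 each) that was called higher (log2 change 0.23, limma adjusted p = 0.0336). No source used here says how reads that fit both were counted, so the level of Bcl2l2 is uncertain, and its call was lost when all 22138 genes were fitted without a filter (adjusted p = 0.0544).

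Bcl2 (ENSMUSG00000057329), the founding gene of the family, was nearly silent. It was listed at 0.148 and 0.155 RPKM after control siRNA and at 0.0931 and 0.0694 RPKM after Hnrnpk siRNA, lower in both, for means of 0.151 ± 0.00490 and 0.0812 ± 0.0168 RPKM (SD, n = 2 each). These values correspond to about 168, 172, 94.3 and 69.7 of the smallest steps in the table at the exonic length of GENCODE M21 (9157 bases), which may differ from the length the authors used. Since its mean lay below the filter, the gene was not tested with the rest. Fitted without a filter, where the added 0.5 RPKM exceeds the values themselves, its log2 change was -0.16 (limma adjusted p = 0.0361). On the scale of RPKM the Hnrnpk siRNA mean was 0.537 of the control mean.

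Among the BH3-only genes Bid and Bmf fell, and Bad and Bcl2l11 were not called. Over all genes tested 67.2% were called, so 2 of 4 is no result about the group. Bid (ENSMUSG00000004446) links death receptors to mitochondria, since caspase 8 cuts its protein into an active form. Its control libraries held 32.7 and 32.9 RPKM, against 21.9 and 23.2 RPKM after Hnrnpk siRNA, with no overlap. The mean fell from 32.8 ± 0.130 to 22.6 ± 0.928 RPKM (SD, n = 2 each), and the log2 change was -0.53 (SE 0.0640, 95% interval -0.67 to -0.39, limma adjusted p = 6.54e-05). Exons of Bcl2l13 overlap 628 bases of Bid (17.7% of its exonic length) on the opposite strand. Bcl2l13 was not called (24.5 ± 1.60 and 22.1 ± 0.569 RPKM, SD, n = 2 each), and no source used here says whether counting used strand.

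Bmf (ENSMUSG00000040093) encodes a BH3-only protein released when cells lose attachment. Its control libraries lay apart, at 5.25 and 3.79 RPKM, and its Hnrnpk siRNA libraries close together, at 2.26 and 2.43 RPKM, below both controls. The mean fell from 4.52 ± 1.04 to 2.35 ± 0.120 RPKM (SD, n = 2 each), a ratio of 0.519, and limma put the log2 change at -0.80 (SE 0.128, adjusted p = 0.000395). The size depends on the control library used: the log2 change was -0.59 without control replicate 1 and -1.02 without control replicate 2, called in each case. The call was lost without a filter on low values (adjusted p = 0.0703).

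Bcl2l11 (ENSMUSG00000027381) encodes BIM, a BH3-only protein that binds all anti-apoptotic members and can activate BAX and BAK1. It had almost the same value in every library: 5.25 and 5.39 RPKM after control siRNA and 5.28 and 5.35 RPKM after Hnrnpk siRNA, with overlapping groups. The log2 change was -0.00045 (SE 0.0764), with a 95% interval of -0.17 to 0.17 (limma adjusted p = 0.996). Among all genes tested, the size of its change lay at percentile 0.0761. Of its 2 promoter windows, neither of them printed above, 1 held both the CT element core and the forkhead motif.

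Bad (ENSMUSG00000024959) encodes a BH3-only protein that survival kinases keep inactive by phosphorylation. Its values were 6.73 and 7.32 RPKM with control siRNA, then 7.41 and 8.39 RPKM with Hnrnpk siRNA; the groups did not overlap, but 7.32 and 7.41 RPKM are close. The log2 change was 0.16 (SE 0.0858, 95% interval -0.035 to 0.35, limma adjusted p = 0.13). It was called without control replicate 2 (0.21, adjusted p = 0.0490) and with each library's trend on GC content removed (0.26, adjusted p = 0.0208); its adjusted p ran from 0.0208 to 0.624 over the alternatives. Exons of Gpr137, which was not called, overlap 524 bases of Bad on the opposite strand.

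Both effectors fell, Bok by far the more. Over all genes tested 67.2% were called, 35.0% of them all lower, so 2 of 2 called lower is no result about the group. Bok (ENSMUSG00000026278) encodes an effector that, unlike BAX and BAK1, is thought to be governed mainly by protein turnover rather than by the anti-apoptotic members. The controls held 23.0 and 23.8 RPKM and the Hnrnpk siRNA libraries 9.22 and 10.3 RPKM, far apart. The mean fell from 23.4 ± 0.584 to 9.75 ± 0.751 RPKM (SD, n = 2 each), or 0.416 of the control mean. Its log2 change was -1.23 (SE 0.0743, 95% interval -1.39 to -1.06, limma adjusted p = 1.06e-06), the largest among the members in size and at percentile 95.3 of the sizes of all genes tested. No exon of another gene in GENCODE M21 overlaps it.

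Bak1 (ENSMUSG00000057789), which encodes the effector BAK that resides on the mitochondrial outer membrane, fell little. Its levels were 49.2 and 50.5 RPKM after control siRNA and 41.3 and 43.5 RPKM after Hnrnpk siRNA, with no overlap. The mean went from 49.9 ± 0.933 to 42.4 ± 1.55 RPKM (SD, n = 2 each), which limma put at -0.23 on the log2 scale (SE 0.0624, adjusted p = 0.00863). Leaving out Hnrnpk siRNA replicate 1 ended the call (-0.19, adjusted p = 0.0637), as did removing GC trends (-0.13, adjusted p = 0.0776). Exons annotated to Ggnbp1, under separate identifiers, overlap 437 and 177 bases of Bak1 on the opposite strand (18.2% and 7.35% of its exonic length). Ggnbp1 was not called under the identifier that has values.

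**Figure D3:**
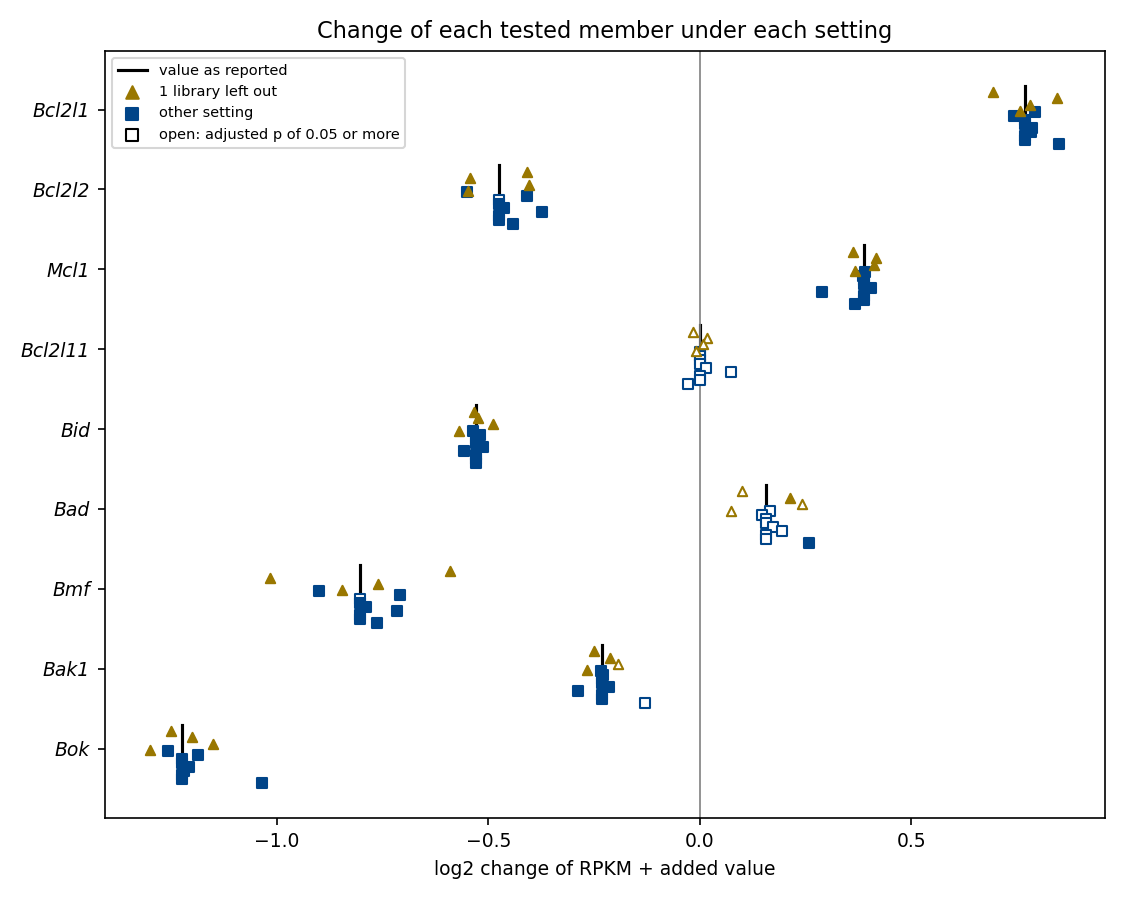
Log2 change of each tested member (x axis) under each way of processing the values, with a black bar at the value reported, triangles for fits with 1 library left out and squares for other settings; open symbols have an adjusted p of 0.05 or more. Bok, Bid, Bcl2l1 and Mcl1 are called under all 13 alternatives, Bcl2l11 under none, and Bak1, Bad, Bmf and Bcl2l2 under some.

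Because RPKM is scaled to length, levels of different genes can be set side by side within a library. The summed level of the 4 anti-apoptotic genes was 119.6 and 124 RPKM in the control libraries and 159.7 and 165 RPKM after Hnrnpk siRNA, a ratio of means of 1.33. Mcl1 made up 89.0% ± 0.147 of that sum in the controls and 87.7% ± 0.0253 after Hnrnpk siRNA, and Bcl2l1 8.39% ± 0.411 and 11.0% ± 0.0974 (SD, n = 2 each). The ratio of Mcl1 to Bcl2l1 therefore went from 10.6 ± 0.538 to 8.0 ± 0.0733 (SD, n = 2 each). The summed level of the 4 BH3-only genes was 49.96 and 49.4 RPKM in the controls and 36.9 and 39.4 RPKM after Hnrnpk siRNA, a ratio of 0.768, and Bid held 66.1% ± 0.789 and 59.2% ± 0.349 of it (SD, n = 2 each). The 2 effectors summed to 72.2 and 74.4 RPKM in the controls and to 50.6 and 53.8 RPKM after Hnrnpk siRNA. These sums follow the genes just described and are given with no test; they describe transcripts, and protein was not measured.

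The effectors look different once Bax, the p53-regulated effector outside the 10 genes, is set beside them. Bax was listed at 155 and 155 RPKM after control siRNA and at 243 and 266 RPKM after Hnrnpk siRNA, and rose by 0.72 on the log2 scale (SE 0.0686, limma adjusted p = 1.55e-05). The sum of Bak1, Bok and Bax was 227 and 229 RPKM in the controls and 294 and 320.0 RPKM after Hnrnpk siRNA. Bax supplied 67.9% ± 0.480 of it in the controls and 83.0% ± 0.265 after Hnrnpk siRNA, while the share of Bok went from 10.3% ± 0.197 to 3.17% ± 0.0550 (SD, n = 2 each). The ratio of Bax to Bak1 went from 3.11 ± 0.0622 to 6.00 ± 0.158 and that of Bak1 to Bok from 2.13 ± 0.0132 to 4.36 ± 0.177 (SD, n = 2 each).

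**Figure D4:**
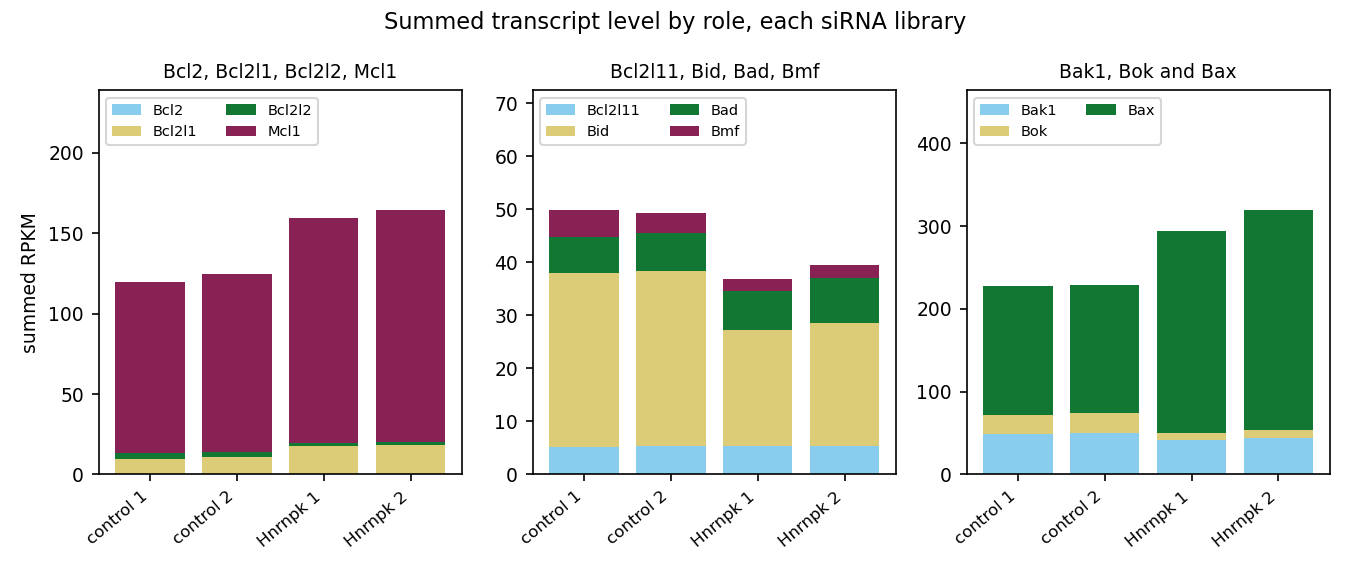
Summed RPKM in each library for the anti-apoptotic genes, the BH3-only genes, and the effectors with Bax, stacked by gene on axes that start at 0. The anti-apoptotic sum, mostly Mcl1, and the sum of the effectors with Bax are higher in both Hnrnpk siRNA libraries than in both controls, and the BH3-only sum, mostly Bid, is lower.

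The rest of the family was read from a list of 17 further symbols, of which 16 were in the table and 10 passed the filter. In it 6 were called higher, 3 lower and 1, Bcl2l13, was not called, with a median log2 change of 0.31. Over all genes tested, 32.2% were called higher and 35.0% lower. The rises included the p53 targets Pmaip1 (NOXA, which binds MCL1), with a log2 change of 1.55, Bax, with 0.72, and Bbc3 (PUMA), which had 18.7 and 13.6 RPKM in the controls and 24.1 and 25.9 RPKM after Hnrnpk siRNA (log2 change 0.63, limma adjusted p = 0.00127; 0.85 without control replicate 1 and 0.41 without control replicate 2, called in each case). Bcl2l12, a member with a divergent domain, rose by 0.68 on the log2 scale, from 8.94 ± 0.0898 to 14.6 ± 0.0363 RPKM (SD, n = 2 each). Bnip3l, a receptor for removal of mitochondria, had a log2 change of 0.32, and the BH3-only gene Hrk one of 0.30 at under 1 RPKM in all libraries, or 0.46 with 0.1 RPKM added.

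Among the family members that fell, Bik, a BH3-only gene of the endoplasmic reticulum, went from 2.33 and 1.70 RPKM in the controls to 0.717 and 0.861 RPKM after Hnrnpk siRNA, with no overlap (log2 change -0.95, SE 0.128, limma adjusted p = 0.000131). The size for Bik depended on the added value, at -1.24 with 0.1 RPKM and -0.75 with 1 RPKM in place of 0.5. Without control replicate 1 it was -0.77. Bcl2l14 had a log2 change of -0.48, from 2.24 ± 0.0961 to 1.46 ± 0.0621 RPKM (SD, n = 2 each). Bnip3, a hypoxia-induced relative, stood at 13.5 and 7.5 RPKM in the controls and at 4.41 and 4.68 RPKM after Hnrnpk siRNA. Its control libraries lay far apart, so its log2 change of -1.07 became -0.66 without control replicate 1 and -1.47 without control replicate 2, called in each case, and up to 48.9% of its transcript is shared with other annotated genes at 95% identity or more. Hrk lost its call without control replicate 1 (0.20, adjusted p = 0.0634) and without either Hnrnpk siRNA library (0.30 each, adjusted p = 0.128 and 0.131). Bnip3l lost its call without Hnrnpk siRNA replicate 2 (0.23, adjusted p = 0.064) and with GC trends removed (0.21, adjusted p = 0.0617), and Bcl2l13 was called without control replicate 2 (-0.21, adjusted p = 0.0286). The 4 genes of the Bcl2a1 cluster, which are near-identical copies, were at 0.0246 RPKM or less. Bcl2l10 (0.118 to 0.299 RPKM) and Bcl2l15 (0.0206 to 0.153 RPKM) were below the filter. Without a filter on low values, the calls of Bbc3 (adjusted p = 0.111), Bnip3 (0.122), Bnip3l and Hrk were lost.

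Downstream of the mitochondrion, the list of the apoptosome and caspases had 11 of 11 genes tested, with 5 called higher, 4 lower and a median log2 change of 0.18; the counts of this list and of those that follow are to be read against the 32.2% of all genes tested called higher and the 35.0% called lower. The nuclease subunit gene Dffb rose from 5.03 ± 0.220 to 8.27 ± 1.21 RPKM (log2 change 0.66; SD, n = 2 each). Cycs, which encodes the cytochrome c that the pores release, had a log2 change of 0.53. It was listed at only 0.699 ± 0.00945 and 1.23 ± 0.00660 RPKM (SD, n = 2 each), and 30.3% of its transcript matches the annotated copy Gm10053 at 99.9% identity, so its level is uncertain. Without a filter on low values Dffb lost its call (adjusted p = 0.05005), and so did Diablo, Casp8, Cflar and Mtch2 of the lists that follow (adjusted p of 0.0567 to 0.0722). Endog, a mitochondrial nuclease gene that shares 35.9% of its transcript with its neighbour Spout1, had a log2 change of -0.63, from 41.5 ± 1.58 to 26.7 ± 2.11 RPKM (SD, n = 2 each), which was -0.36 with GC trends removed, still called.

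The list of inhibitors of apoptosis (IAPs) and their antagonists had 7 genes tested, with 2 called higher, 2 lower and a median of -0.042. The IAP genes Birc5 (survivin, also a mitotic protein) and Xiap rose, with log2 changes of 0.47 and 0.35, and the genes of their mitochondrial antagonists Htra2 and Diablo fell, with -0.55 and -0.26. The other 3 genes tested, all IAP genes, were not called, with overlapping groups and log2 changes from -0.093 to -0.038. Birc5 went from 58.5 ± 0.268 to 81.0 ± 0.407 RPKM and Htra2 from 13.9 ± 0.20 to 9.39 ± 0.861 RPKM (SD, n = 2 each). Xiap lost its call with GC trends removed (0.14, adjusted p = 0.105) and Diablo without Hnrnpk siRNA replicate 1 (-0.19, adjusted p = 0.126). Htra2 shares 21.7% of its transcript with its neighbour Loxl3.

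In the death receptor pathway, which reaches the mitochondrion through Bid, 7 of 9 genes were tested, 2 were called higher, 2 lower, and the median was 0.15. Tnfrsf10b, the mouse receptor for TRAIL, rose from 14.6 ± 0.945 to 27.2 ± 0.283 RPKM (log2 change 0.87) and the adaptor kinase gene Ripk1 from 2.13 ± 0.222 to 4.43 ± 0.125 RPKM (log2 change 0.91; SD, n = 2 each). Cflar, an inhibitor of caspase 8, and Casp8, which cuts BID, were called lower at -0.33 and -0.23. The call of Cflar was lost without Hnrnpk siRNA replicate 1 (-0.34, adjusted p = 0.0763) or replicate 2 (-0.33, adjusted p = 0.0899). That of Casp8 was lost without either Hnrnpk siRNA library (-0.21 and -0.25, adjusted p = 0.209 and 0.139) and under quantile normalization (-0.14, adjusted p = 0.161).

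Of 10 tested partners of the family at the mitochondrion, 2 were called higher and 2 lower, with a median of 0.11. Opa1, which shapes the inner membrane, had a log2 change of -0.38 and the fission gene Dnm1l one of -0.25, or -0.38 with GC trends removed. Mtch2, a receptor for the active form of BID, had 0.24, and Tmbim6, whose product guards the endoplasmic reticulum, had 0.17. Dnm1l and Mtch2 lost their calls without Hnrnpk siRNA replicate 2 (-0.20, adjusted p = 0.060, and 0.18, adjusted p = 0.0947). Tmbim6 lost its call whichever library was left out, controls included (0.16 to 0.18, adjusted p of 0.0676 to 0.0965), under quantile normalization (0.088, adjusted p = 0.203) and without limma's trend (0.17, adjusted p = 0.058). Mtch2 shares 33.8% of its transcript with Gm2199.

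Enzymes known to govern the turnover of MCL1 and BIM were tested for 8 of 9 symbols, 3 called higher and 2 lower, with a median of 0.092. Huwe1, a ubiquitin ligase for MCL1, had a log2 change of -0.39, from 61.5 ± 0.0759 to 46.9 ± 3.62 RPKM (SD, n = 2 each). March5, another ligase, had one of 0.37, from 48.1 ± 0.721 to 62.4 ± 0.763 RPKM (SD, n = 2 each), with 46.0% of its transcript shared with Gm8641. Fbxo4 and Trim17, both at low levels, had log2 changes of 0.85 and -0.65. With 0.1 RPKM added in place of 0.5 these were 1.10 and -1.02, both still called. Trim17 (means of 0.914 and 0.402 RPKM) passed the filter only through the control libraries, and it shares 19.4% of its transcript with Hist3h2a. Of the list of regulators of BAD, 11 of 12 symbols were tested, 2 called higher and 3 lower, with a median of -0.030. The survival kinase genes Pim2, Akt1 and Prkaca fell, with log2 changes of -0.48, -0.47 and -0.34; with GC trends removed that of Akt1 was -0.31, still called. Akt2 had 0.26, and its call was lost without either Hnrnpk siRNA library (0.27 and 0.25). Akt2 shares 31.9% of its transcript with Akt2-ps at 98.6% identity, so its level is uncertain.

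**Figure D5:**
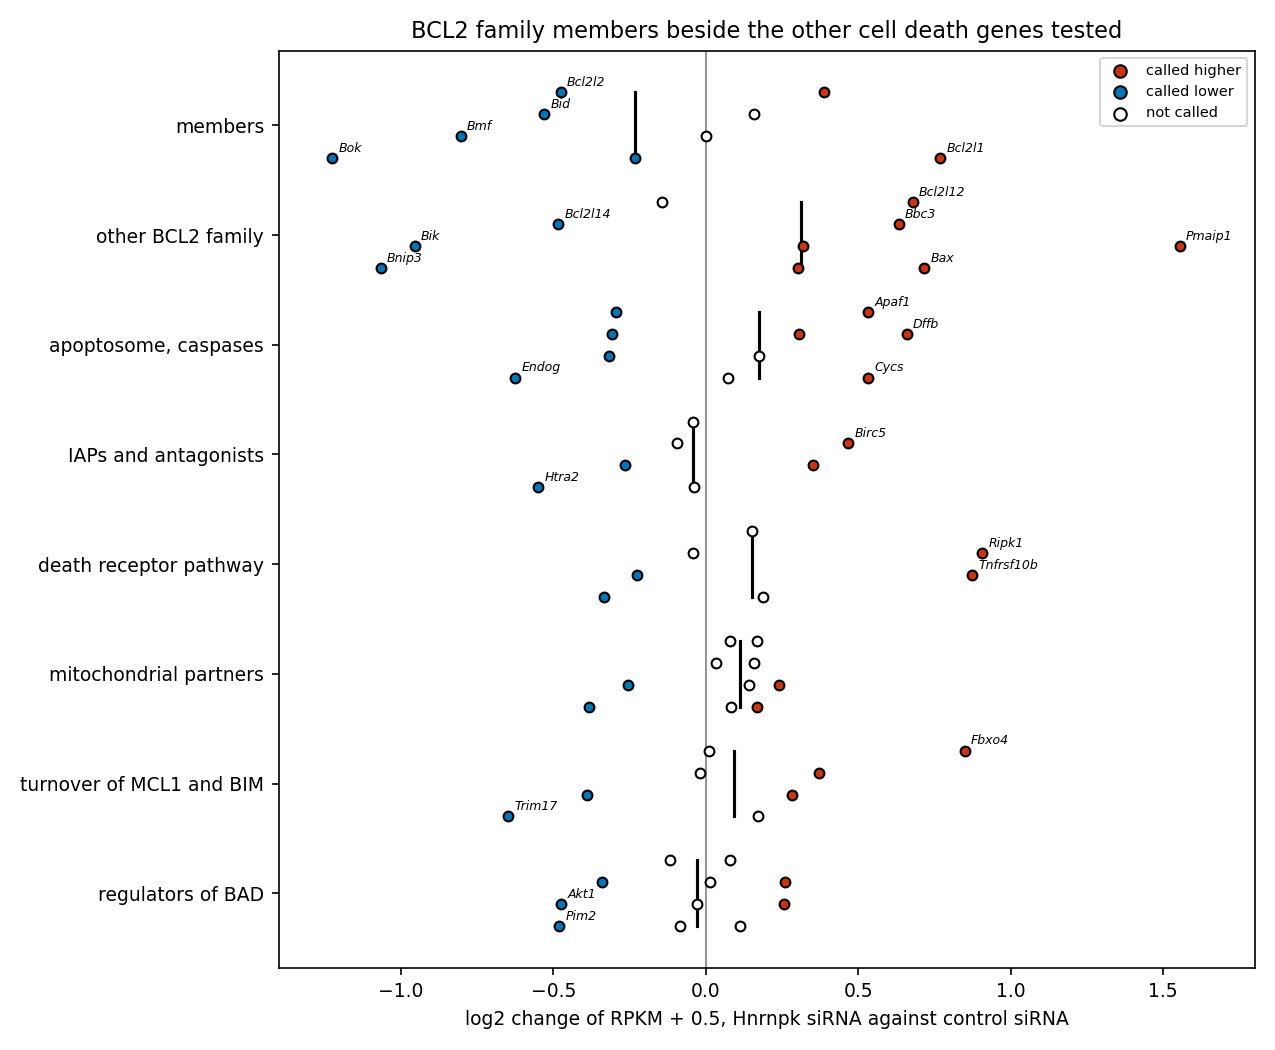
Log2 change of RPKM + 0.5 (x axis) for the genes tested among the members and 7 lists of related genes (rows; 1 gene of the apoptosome and caspases is not drawn but counts in its median), red where called higher, blue where called lower and white where not called, with a black bar at the median of each row and names beside changes over 0.45 in size. The members' median is -0.23 and that of the other BCL2 family genes 0.31, and each row holds genes on both sides of 0.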

How the data were processed

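Gene expression was measured by RNA-seq in 4 libraries. The authors deposited 1 table of RPKM values with a column for each library; BWA, SAMtools and the build mm9 are named in the submitters' processing notes, with no role or version, and no source used here gives the counting tool, annotation, strand or treatment of reads with several matches. The labels' protocols name both rRNA depletion and poly(A) selection.

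Columns were matched to samples by name. Values were analysed as log2(RPKM + 0.5), which understates changes of low genes, and the 12486 of 22138 genes whose mean RPKM reached 0.5 were fitted with limma 3.58.1 in R 4.3.3 (mean-variance trend, 7.47 prior degrees of freedom, two-sided, Benjamini-Hochberg adjustment over all genes tested, called at an adjusted p under 0.05). On simulated data of 12486 genes for this comparison, 88% of the genes changed by 0.5 and 99% of those changed by 1 on the log2 scale were recovered, with 14 of 201 calls among unchanged genes. The simulation changed 200 genes and drew gene spreads from the prior that limma fitted, with independent normal noise. The assumptions of limma therefore held by design, and in the real data 67.2% of genes were called, so these shares need not hold there.

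RPKM are not counts. Where values of single-exon genes were divided by the smallest step, 27.0% to 28.9% lay no more than 0.02 from an integer, too few to recover reads or to run a count model; whether a step is a read or a read pair is not known. Exonic lengths, overlaps and GC content came from GENCODE M21 (GRCm38) by identifier, found for 92.8% of identifiers; transcripts were compared by BLAST 2.17.0 at 95% identity over at least 100 bases. All 10 members matched the RefSeq promoter table.

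Named genes are Hnrnpk, the 10 members, the other BCL2 family genes found, and from each further list up to 4 called genes, largest change first (1 of them is not reported here); Gm20521, Gpr137 and Ggnbp1 were named outside this rule for their overlap with members, and the cell type markers for the check of the cells. The members and lists were chosen with earlier results of these data known. Alternatives changed the added value, the filter, the scaling, the trend, the GC correction, the replicate block and the libraries used.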

Additional observations from a re-analysis of the deposited data

How the results depend on the processing

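Over 13 alternatives, Bok, Bid, Bcl2l1 and Mcl1 kept their direction and their call; the log2 changes ranged from -1.30 to -1.04, from -0.57 to -0.49, from 0.69 to 0.85 and from 0.29 to 0.42. Bmf and Bcl2l2 kept their direction, from -1.02 to -0.59 and from -0.55 to -0.37, and lost their call only without a filter on low values, a fit of 22138 genes with 0.766 prior degrees of freedom. Bak1 stayed below 0, from -0.29 to -0.13, and was called in 11 of 13. Bcl2l11 changed sign while never called: its log2 change was 0.015 with scaling by median ratios, 0.074 under quantile normalization, and 0.016 without control replicate 2 and 0.0084 without Hnrnpk siRNA replicate 1; with 1 library left out it ranged from -0.017 (without control replicate 1) to 0.016. The cause was not tested. The counts of members called stayed within 1.5 times, at 2 to 3 higher and 4 to 5 lower, as did the counts over all genes. Without a filter the 4 members called lower included Bcl2, which the main fit did not test, in place of Bmf and Bcl2l2.

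The replicate numbers are not stated to mark a shared culture or day, and same-numbered libraries did not deviate together (correlation 0.0267 across genes). With the replicate block, 4162 genes were called higher and 4460 lower, against 4025 and 4371 without it, and 2 members higher and 5 lower as before. Bcl2, which lies below the filter on RPKM, had the fewest of the smallest steps among the members in every library.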
